A study of Arabidopsis thaliana with 12 samples.

Results

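SMXL3 (AT3G52490), SMXL4 (AT4G29920) and SMXL5 (AT5G57130) are 3 related Arabidopsis thaliana genes, chosen by their locus identifiers, out of 32420 gene loci for which small RNA reads of 21 and of 22 nt were tabulated. The 8 SMXL genes encode nuclear proteins related to class I Clp ATPases. SMAX1 and SMXL2 act in karrikin signalling, SMXL6, SMXL7 and SMXL8 in strigolactone signalling, and SMXL3, SMXL4 and SMXL5 promote formation of the phloem, the tissue that carries sugars, independently of both signals. In plants, DICER-LIKE 4 (DCL4) cuts long double-stranded RNA into 21-nt small interfering RNAs (siRNAs), while DCL2 cuts it into 22-nt siRNAs. When DCL4 is missing, messenger RNAs can become templates for DCL2, and 22-nt siRNAs are known to trigger further rounds of siRNA synthesis from the same messenger.

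Whole seedlings of wild-type Col-0 and of the mutant dcl4-2 were harvested at an age of 10 days from MS medium, a standard plant salt mixture, or from the same medium lacking nitrogen (MS-N). Each combination of genotype and medium made up 1 of 4 groups and was represented by 3 small RNA libraries. The dcl4-2 seedlings carry a mutant allele of DCL4, and the labels name no other allele. Values are normalized reads, the reads of a library divided by its size factor, and library 1, 2 and 3 of a group are named by size factor, largest first. A normalized read measures small RNA from a locus and not its messenger RNA. In RNA of whole seedlings, small RNA in fewer cells and less of it per cell cannot be told apart.

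The 3 genes lie on different chromosomes and overlap no other annotated gene. In the RefSeq annotation of TAIR10.1, SMXL3 occupied chr3:19455505-19459203 on the minus strand, with 3 exons and a transcript of 3275 nt. SMXL4 occupied chr4:14632413-14636101 on the minus strand, with 3 exons, 2 annotated transcripts and a longest transcript of 3519 nt. SMXL5 occupied chr5:23144947-23149615 on the plus strand, with 4 exons and a transcript of 3651 nt. Between their aligned coding sequences, 64.8% of the bases were identical for SMXL4 and SMXL5, 60.7% for SMXL3 and SMXL4, and 60.2% for SMXL3 and SMXL5. SMXL3 and SMXL4 had 6 windows of 21 nt and 5 windows of 22 nt in common. SMXL5 shared no window of 21 or 22 nt with either gene. Of all 22-nt windows, 98.4% in SMXL3, 98.5% in SMXL4 and 98.2% in SMXL5 occurred once in the nuclear and organellar genome. Small RNA reads of these sizes could therefore be told apart by sequence between SMXL4 and SMXL5 over their whole transcripts, and between SMXL3 and SMXL4 outside these windows.

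The 12 libraries held between 4515437 and 7270637 reads. Those of dcl4-2 on MS-N were the shallowest, with up to 5411632 reads, and those of Col-0 on MS-N held at least 6992897. On MS-N the size factors at 22 nt ran from 0.722 to 0.896 in dcl4-2 and from 1.33 to 1.45 in Col-0. A single read therefore counted for more in dcl4-2 on MS-N. The genotype labels were checked on trans-acting siRNAs (tasiRNAs), a class made by DCL4. At 21 nt, tasiRNAs stood at 26379 ± 3900 rpm (reads scaled to library size) in Col-0 and 1128 ± 147 rpm in dcl4-2 on MS (SD, n = 3), and at 45790 ± 4749 and 2675 ± 175 rpm on MS-N. At 22 nt they stood at 1021 ± 141 and 5632 ± 97.4 rpm on MS, and at 2859 ± 118 and 12530 ± 595 rpm on MS-N. At the locus of DCL4 itself (AT5G20320), the 22-nt level on MS was 4.56 ± 0.595 normalized reads for Col-0 and 1.04 ± 0.0263 for dcl4-2 (SD, n = 3). These levels rest on 14 and 3 reads in all. The 3 mutant reads were spread evenly over the libraries, so the mutant SD reflects only their size factors. On MS-N the level was 5.05 ± 2.19 and 7.17 ± 3.48, with overlapping libraries. All these values measure small RNA at the locus and not its messenger.

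Loss of DCL4 came with far more 22-nt reads of SMXL4 on both media. On MS, the Col-0 libraries held 0.878, 2.04 and 1.05 normalized reads of 22 nt from SMXL4, made of 4 reads in all. The dcl4-2 libraries on MS held 66.5, 279 and 199 normalized reads from SMXL4, made of 522 reads. The lowest mutant library stood far above the highest wild-type library. The ratio of the means, 182 ± 107 to 1.32 ± 0.627 (SD, n = 3), was 138, with a 95% counting interval of 54.1 to 513 that covers counting error only. The log2 change was 6.10 ± 0.398 (SE; limma, adjusted p = 3.90e-16). Over the alternative ways of processing, the adjusted p from limma reached 0.0461. Of all loci tested, 0.869% were higher and 0.571% lower in dcl4-2 on MS, and SMXL4 had rank 2 of 20147 by log2 change.

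On MS-N, SMXL4 gave still more 22-nt reads in the mutant. The Col-0 libraries held 4.84, 1.38 and 0.754 normalized reads of 22 nt, from 10 reads, and the dcl4-2 libraries held 995, 307 and 575, from 1565 reads. The groups were again far apart. The ratio of the means, 626 ± 347 to 2.32 ± 2.20 (SD, n = 3), was 269, with a counting interval of 146 to 561, and it ran from 190 to 586 with each library left out in turn. The highest of these ratios was obtained when Col-0 library 1 was left out, which held 7 of that group's 10 reads. The log2 change was 7.60 ± 0.398 (SE; limma, adjusted p = 3.06e-19), rank 1 among the loci tested on MS-N, where 4.16% of loci were higher and 2.13% lower in dcl4-2. The nitrate reductase gene NIA2 (AT1G37130) was not among the loci tested, because its value in dcl4-2 on MS-N could not be split into libraries. On MS-N the deposited 22-nt mean of NIA2 was 108 normalized reads for Col-0 and 45734 for dcl4-2.

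SMXL5 had more 22-nt reads in the mutant on MS-N. On MS, the Col-0 libraries held 7.90, 5.09 and 3.14 normalized reads of 22 nt from SMXL5, and the dcl4-2 libraries 3.07, 6.17 and 28.9. Library 3 of dcl4-2 stood alone above the wild type, and the groups overlapped. The log2 change on MS was 0.65 ± 0.570 (SE; limma, adjusted p = 0.777), and without that library it was -0.17. On MS-N, the Col-0 libraries held 6.22, 0.691 and 0 normalized reads of SMXL5, from 10 reads, and the dcl4-2 libraries 61.4, 19.0 and 56.8, from 112 reads. All mutant libraries lay above all wild-type libraries. The ratio of the means, 45.7 ± 23.2 to 2.30 ± 3.41 (SD, n = 3), was 19.9, with a counting interval of 10.07 to 41.2. It rose to 132 when Col-0 library 1 was left out, which held 9 of the 10 wild-type reads. The log2 change was 4.18 ± 0.570 (SE; limma, adjusted p = 7.12e-07), rank 6 of the loci tested. In a fit to the libraries of these 2 groups alone, the same change had an adjusted p of 0.0512.

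SMXL3 gave few 22-nt reads everywhere. The libraries of Col-0 on MS held 0.878, 0 and 1.05 normalized reads of 22 nt from SMXL3, and those of dcl4-2 on MS 1.02, 1.03 and 0. Each of these groups held 2 reads in all. Both are under the floor of 3 reads, so no fold is given between them. On MS-N, the Col-0 libraries held 2.07, 0.691 and 0 normalized reads, from 4 reads, and the dcl4-2 libraries 4.46, 7.14 and 11.1, from 18 reads. The mutant libraries lay above those of the wild type. The ratio of the means was 8.21, with a counting interval of 2.54 to 31.4, and 21.9 without library 1 of Col-0. The log2 change was 2.23 ± 0.645 (SE; limma, adjusted p = 0.0270). This call was lost with a pseudocount of 0.1, in a fit to the 2 groups alone and without any of 4 of the 6 libraries. It was also lost with each group scaled to the sum of its microRNA genes. All 3 genes thus passed the threshold on MS-N and SMXL4 on MS, with different margins. The number of reads behind them on MS-N in dcl4-2 was 1565 for SMXL4, 112 for SMXL5 and 18 for SMXL3.

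**Figure D1:**
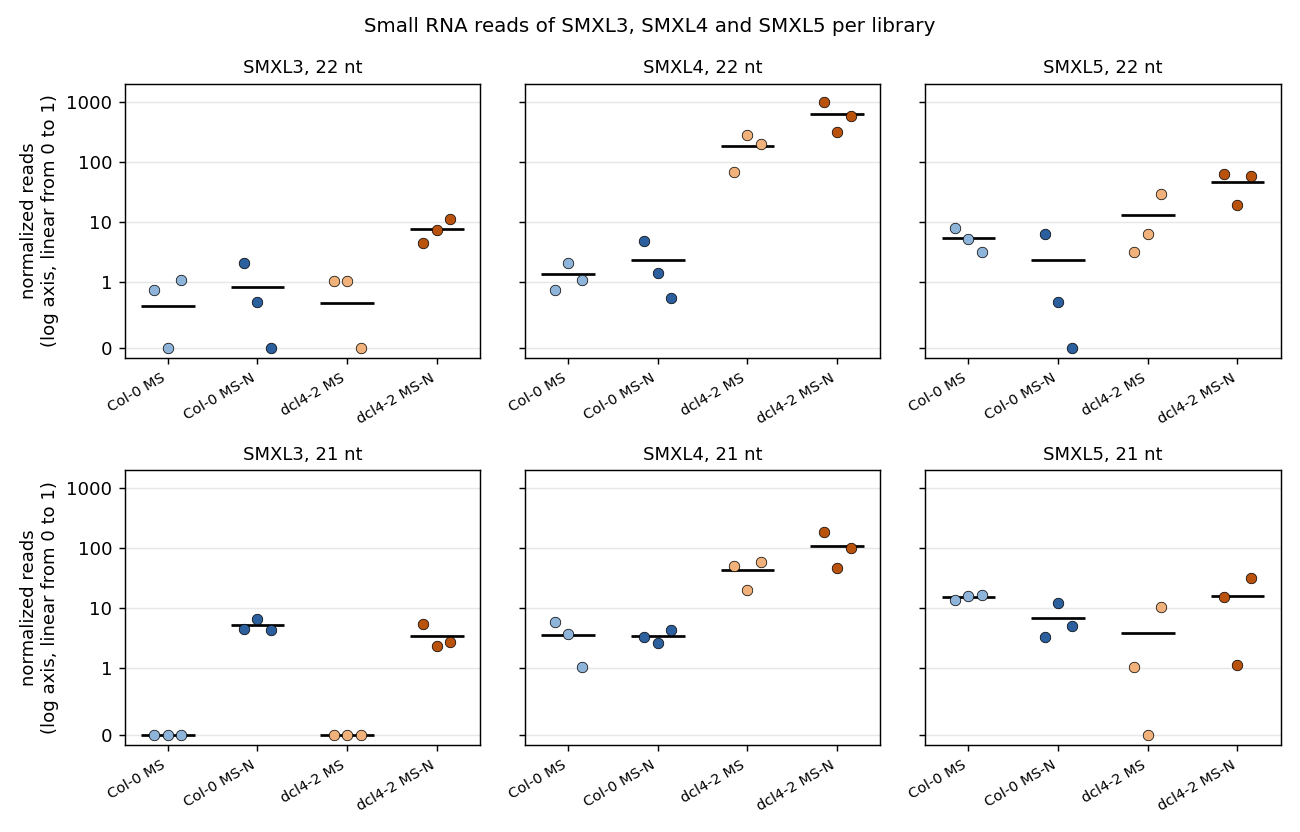
Normalized reads of 22 nt (upper row) and 21 nt (lower row) from SMXL3, SMXL4 and SMXL5 in each of the 3 libraries of the 4 groups (points), with the group mean (bar), on a log axis that is linear from 0 to 1. At 22 nt the dcl4-2 libraries of SMXL4 run from 66.5 to 995 and the Col-0 libraries from 0.754 to 4.84.

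**Figure D2:**
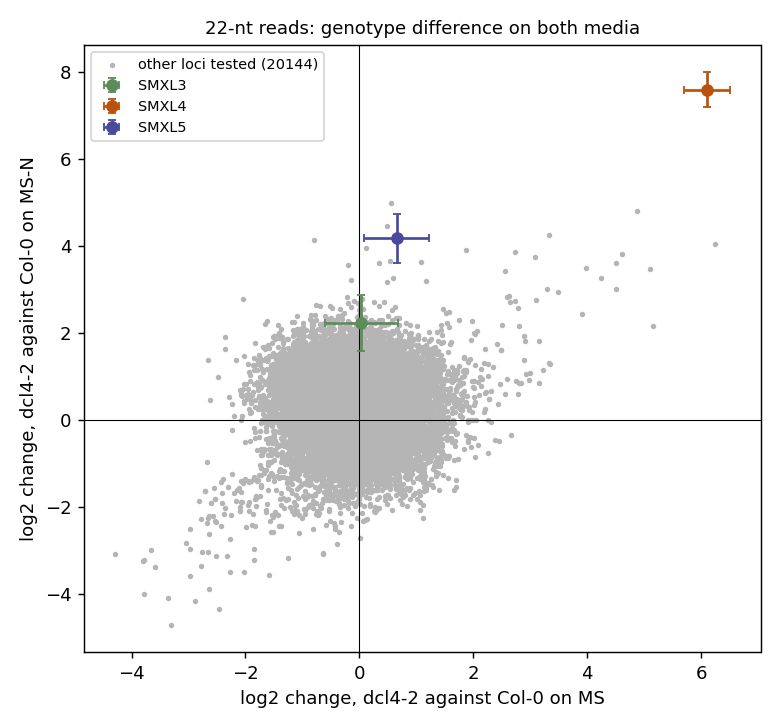
Log2 change of 22-nt reads between dcl4-2 and Col-0 on MS (x axis) and on MS-N (y axis) for each locus tested (grey) and for the 3 genes (coloured, ± SE). SMXL4 lies at 6.10 and 7.60, SMXL5 at 0.65 and 4.18, and SMXL3 at 0.03 and 2.23.

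The 21-nt reads of the 3 genes went in different directions in the mutant. For SMXL4 the Col-0 libraries on MS held 6.02, 3.73 and 1.03 normalized reads of 21 nt, and the dcl4-2 libraries 50.9, 20.1 and 59.1. No mutant library reached down to the wild type. The means were 3.60 ± 2.50 and 43.3 ± 20.6 (SD, n = 3), a ratio of 12.1 that reached 18.2 without library 1 of Col-0, and the log2 change was 3.31 ± 0.427 (SE; limma, adjusted p = 6.77e-08), rank 5 of 19385. In a fit to these 2 groups alone the adjusted p was 0.197. On MS-N the Col-0 libraries held 3.27, 2.69 and 4.33 normalized reads of 21 nt from SMXL4 and the dcl4-2 libraries 185, 47.4 and 100.4. The groups were apart here too. The ratio of the means, 111 ± 69.1 to 3.43 ± 0.830 (SD, n = 3), was 32.3, with a counting interval of 19.7 to 59.9 and, without library 1 of dcl4-2, a value of 21.6. The log2 change was 4.47 ± 0.427 (SE; limma, adjusted p = 3.71e-12), rank 1 of the loci tested. NIA2 was not among the loci tested at 21 nt either. Its deposited 21-nt mean on MS-N was 71.3 normalized reads for Col-0 and 8383 for dcl4-2. Of all loci at 21 nt, 0.5% were higher and 0.769% lower in dcl4-2 on MS, and 2.32% higher and 2.26% lower on MS-N.

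SMXL5 fell at 21 nt in dcl4-2 on MS. Its Col-0 libraries held 13.8, 15.9 and 16.5 normalized reads of 21 nt and its dcl4-2 libraries 1.06, 0 and 10.4. The groups did not overlap, and the wild-type libraries were close together. The means were 15.4 ± 1.44 and 3.83 ± 5.74 (SD, n = 3), so that Col-0 stood 4.02-fold above dcl4-2, and the log2 change was -2.51 ± 0.611 (SE; limma, adjusted p = 0.0129). The call was lost when any of 5 of the 6 libraries was left out, and the mutant mean was 0.530 without library 3. On MS-N the Col-0 libraries held 3.27, 12.1 and 5.05 normalized reads of 21 nt and the dcl4-2 libraries 15.4, 1.16 and 31.6. These overlapped, with a log2 change of 0.59 ± 0.611 (SE; limma, adjusted p = 0.641).

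SMXL3 gave no 21-nt read in any library on MS, in either genotype, which allows up to 3 reads over a group. On MS-N the Col-0 libraries held 4.58, 6.72 and 4.33 normalized reads of 21 nt and the dcl4-2 libraries 5.49, 2.31 and 2.75. These overlapped, with a log2 change of -0.50 ± 0.626 (SE; limma, adjusted p = 0.707).

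In the wild type, SMXL3 was the 1 gene of the 3 that passed the threshold between the media, at 21 nt. There, 23 reads on MS-N stood against 0 on MS, and the mean on MS-N was at least 5.53-fold higher, if 3 reads are taken as the floor of the MS group. The log2 change of SMXL3 was 2.61 ± 0.626 (SE; limma, adjusted p = 0.00324), where 2.08% of all loci were higher and 3.86% lower. SMXL4 had a log2 change of 0.10 ± 0.427 (SE; limma, adjusted p = 0.949) at 21 nt. SMXL5 had means of 15.4 on MS and 6.81 ± 4.67 (SD, n = 3) on MS-N, and the groups did not overlap. Its log2 change of -1.23 ± 0.611 (SE; limma, adjusted p = 0.291) missed the threshold. SMXL5 passed the threshold with each group scaled to the sum of its microRNA genes (limma, adjusted p = 0.0368). At 22 nt none of the 3 genes passed it in Col-0, where 1.81% of all loci were higher and 4.54% lower. The log2 changes at 22 nt were 0.15 ± 0.645 for SMXL3, 0.35 ± 0.398 for SMXL4 and -1.40 ± 0.570 for SMXL5 (SE; limma, adjusted p = 0.953, 0.725 and 0.158). SMXL5 passed the threshold under microRNA scaling (-1.81, adjusted p = 0.0290) and without library 1 on MS-N (-2.22, adjusted p = 0.0203).

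In dcl4-2, the reads of all 3 genes at both sizes were higher on MS-N than on MS, in a comparison in which many loci rose. At 22 nt 9.89% of all loci were higher and 5.77% lower, and at 21 nt 8.47% were higher and 4.66% lower. SMXL4 rose 3.45-fold at 22 nt, from a mean of 182 to one of 626, with a log2 change of 1.85 ± 0.398 (SE; limma, adjusted p = 8.17e-04). Every MS-N library of the mutant lay above every MS library, although the gap between 279 and 307 was small. SMXL5 rose 3.59-fold at 22 nt, from 12.7 ± 14.1 to 45.7 ± 23.2 (SD, n = 3), with a log2 change of 2.12 ± 0.570 (SE; limma, adjusted p = 0.00744). Library 3 on MS, at 28.9, lay above library 2 on MS-N, at 19.0, and without that MS library the ratio was 9.90. SMXL3 rose from 2 to 18 reads, a ratio of 11.1 with a counting interval of 2.53 to 93.8 and a log2 change of 2.34 ± 0.645 (SE; limma, adjusted p = 0.00914). None of the 3 calls held in every alternative. That of SMXL4 was lost without a variance trend (adjusted p = 0.0529) and in a fit to the 2 groups (adjusted p = 0.0828), and those of SMXL5 and SMXL3 had adjusted p up to 0.164 and 0.105.

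The rises at 21 nt in dcl4-2 were nearer to the threshold. SMXL4 went from 43.3 to 111, a ratio of 2.56 and a log2 change of 1.26 ± 0.427 (SE; limma, adjusted p = 0.0381), and the ratio was 1.71 without library 1 on MS-N. SMXL5 went from 3.83 to 16.1 ± 15.2 (SD, n = 3), with a log2 change of 1.87 ± 0.611 (SE; limma, adjusted p = 0.0314) and overlapping groups. Its ratio was 4.19, and it was 30.3 without library 3 of the MS group and 2.16 without library 3 of the MS-N group. SMXL3 went from 0 to 9 reads, at least 3.17-fold higher against the floor, with a log2 change of 2.11 ± 0.626 (SE; limma, adjusted p = 0.0161). This call was lost under microRNA scaling (adjusted p = 0.0971), in the 2-group fit (adjusted p = 0.0677) and without library 1 on MS-N (adjusted p = 0.0717). For SMXL4 and SMXL5 at 21 nt the call was lost without some single libraries, in the 2-group fit, without a variance trend, with a pseudocount of 0.1 and under microRNA scaling.

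Whether the mutant's difference from the wild type was larger on MS-N than on MS was tested as an interaction of genotype and medium. For SMXL5 at 22 nt the interaction was 3.52 ± 0.806 on the log2 scale (SE; limma, adjusted p = 0.0108), rank 15, where 1.8% of all loci had a higher and 0.298% a lower difference on MS-N. The genotype differences behind it were 0.65 on MS and 4.18 on MS-N. Seen between the media, it joined a rise of 2.12 in dcl4-2 and a change of -1.40 in Col-0. The change in Col-0 did not itself pass the threshold (limma, adjusted p = 0.158). The adjusted p was 0.114 with a pseudocount of 0.1 and 0.155 without a variance trend, and the call was lost without any of 5 of the 12 libraries. SMXL4 had an interaction of 1.49 ± 0.563 and SMXL3 one of 2.20 ± 0.912 at 22 nt (SE; limma, adjusted p = 0.158 and 0.204). At 21 nt no interaction of the 3 genes passed the threshold, with 3.10 ± 0.864 for SMXL5, 1.16 ± 0.604 for SMXL4 and -0.50 ± 0.885 for SMXL3 (SE; limma, adjusted p = 0.0715, 0.364 and 0.838). SMXL5 at 21 nt passed it with libraries scaled by a trimmed mean (adjusted p = 0.0487), and when 1 mutant library was left out, library 3 on MS (adjusted p = 0.00536) or library 2 on MS-N (adjusted p = 0.0168). Of all loci at 21 nt, 0.387% had a higher and 0.0619% a lower difference on MS-N.

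The 2 sizes of small RNA were set against each other by the share of 22-nt reads in the sum of 21- and 22-nt reads over the 3 libraries of a group. For SMXL4 this share was 25.0% of 16 reads in Col-0 on MS (95% Clopper-Pearson interval 7.27 to 52.4%) and 81.7% of 639 reads in dcl4-2 on MS (78.5 to 84.6%). On MS-N it was 40.0% of 25 reads in Col-0 (21.1 to 61.3%) and 84.7% of 1847 reads in dcl4-2 (83.0 to 86.3%). On MS, the share for SMXL5 was 25.8% of 66 reads in Col-0 (15.8 to 38.0%) and 78.3% of 46 reads in dcl4-2 (63.6 to 89.1%). On MS-N the values for SMXL5 were 25.0% of 40 reads (12.7 to 41.2%) and 74.7% of 150 reads (66.9 to 81.4%). For SMXL3 on MS-N it was 14.8% of 27 reads in Col-0 and 66.7% of 27 reads in dcl4-2 (4.19 to 33.7% and 46.0 to 83.5%), while 2 reads per group on MS allow no statement. In every pair with more than 2 reads the mutant's interval lay wholly above that of the wild type. Pooled over the loci split into libraries in both tables, Col-0 had 51.5% on MS and 49.0% on MS-N, and dcl4-2 had 55.6% and 51.7%. The loci left out of this pool had the highest means. Those not split in a group held 71.9 to 88.4% of its column sum at 21 nt and 17.4 to 49.6% at 22 nt. The pooled shares are therefore not those of all gene loci. The intervals cover counting error only, and no test was made, since libraries could not be matched between the tables.

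**Figure D3:**
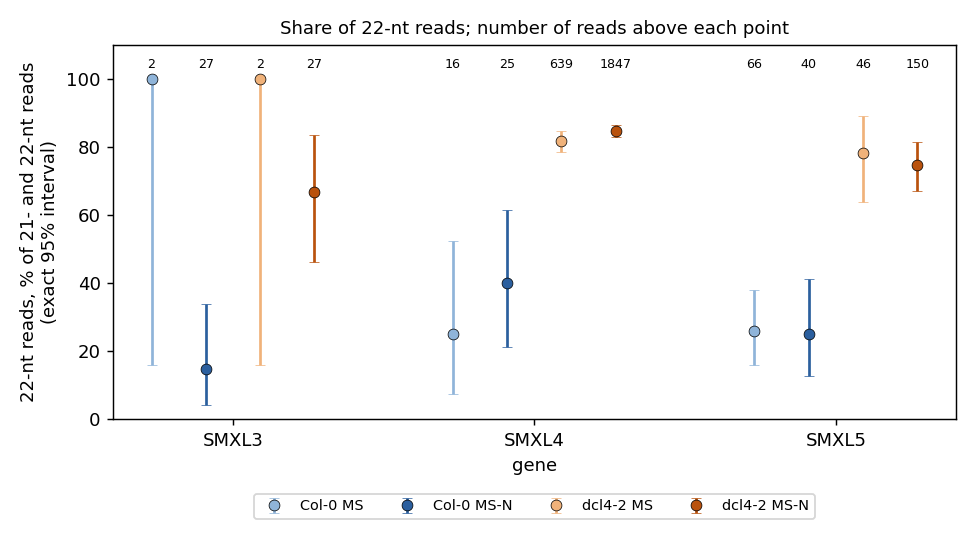
Share of 22-nt reads in the 21- and 22-nt reads of SMXL3, SMXL4 and SMXL5 in each group (points, over 3 libraries), in %, with exact 95% intervals for counting error and the number of reads above each point. SMXL4 and SMXL5 lie between 25.0 and 40.0% in Col-0 and between 74.7 and 84.7% in dcl4-2.

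Levels were compared between the genes as normalized reads per kb of transcript. In Col-0 on MS the order at 22 nt was SMXL5 at 1.47 ± 0.656, SMXL4 at 0.375 ± 0.178 and SMXL3 at 0.196 ± 0.171 per kb (SD, n = 3), and the libraries of SMXL4 and SMXL3 overlapped. On MS-N in Col-0 the 3 genes stood between 0.281 and 0.661 per kb and all neighbours overlapped. In dcl4-2 the order at 22 nt was SMXL4, SMXL5, SMXL3 on both media, with no overlap between neighbours. On MS these levels were 51.6 ± 30.5, 3.49 ± 3.87 and 0.209 ± 0.181 per kb (SD, n = 3). The corresponding levels per kb without nitrogen were 178 ± 98.6, 12.5 ± 6.36 and 2.31 ± 1.02 (SD, n = 3). Ranks per kb were taken among 30614 loci with an annotated messenger RNA on the nuclear chromosomes, so microRNA genes were left out. Between Col-0 and dcl4-2, SMXL4 moved from rank 14755 to rank 170 on MS, and from rank 11174 to rank 26 on MS-N. SMXL4 made up 0.187% of all normalized 22-nt reads at gene loci in dcl4-2 on MS-N and 0.00112% in Col-0 on MS-N. At 21 nt the order in Col-0 on MS was SMXL5 at 4.21 ± 0.395, SMXL4 at 1.02 ± 0.710 and SMXL3 at 0 per kb (SD, n = 3), without overlap. In dcl4-2 SMXL4 led at 21 nt on both media, at 12.3 ± 5.84 and 31.5 ± 19.6 per kb (SD, n = 3), while SMXL5 and SMXL3 overlapped.

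Within the mutant, libraries of 1 group differed several-fold. The highest 22-nt value of SMXL4 was 4.19 times the lowest on MS and 3.24 times on MS-N, and for SMXL5 these ratios were 9.42 and 3.22. Library 1 on MS and library 2 on MS-N were the lowest of their group for both SMXL4 and SMXL5. SMXL3 was lowest in library 3 on MS and in library 1 on MS-N.

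None of the other SMXL genes tested passed the threshold between the genotypes at 22 nt. The family counted 8 genes, of which 7 were tested at 22 nt, and SMXL8 had 3 reads in all and did not pass the filter. On MS, 1 of these 7 was higher and 0 lower in dcl4-2, with a median log2 change of 0.65 beside -0.01 over all loci, of which 0.869% were higher. On MS-N, 3 were higher and 0 lower, where 4.16% of all loci were higher, and the 3 were SMXL3, SMXL4 and SMXL5. The median there was 1.37 beside 0.32. SMAX1, which restrains the response to karrikin, had log2 changes of -0.70 ± 0.528 on MS and 0.34 ± 0.528 on MS-N (SE; limma, adjusted p = 0.719 and 0.744). SMXL2, its closest relative, had -0.54 ± 0.663 and 1.37 ± 0.663 (SE; limma, adjusted p = 0.878 and 0.218). SMXL6 and SMXL7, repressors of strigolactone responses, differed by 0.74 ± 0.683 and 1.18 ± 0.647 between the genotypes on MS and by 0.17 ± 0.683 and 0.30 ± 0.647 between them on MS-N, with adjusted p between 0.558 and 0.917 (SE; limma). In dcl4-2 between the media, SMXL2 rose with SMXL3, SMXL4 and SMXL5 at 22 nt, from 1 to 14 reads. Its ratio was 16.6, with a counting interval of 2.50 to 694, and its log2 change was 2.34 ± 0.663 (SE; limma, adjusted p = 0.0117). In this comparison 4 of the 7 genes were higher and 0 lower, where 9.89% of all loci were higher and 5.77% lower. The median log2 change was 1.85 beside 0.32 over all loci. At 21 nt SMXL4 was the 1 gene of 7 that was higher in dcl4-2 on either medium, and SMXL5 the 1 that was lower on MS. Of all loci at 21 nt, 0.5% were higher and 0.769% lower on MS, and 2.32% higher and 2.26% lower on MS-N. Neither of the calls on MS held in every alternative.

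**Figure D4:**
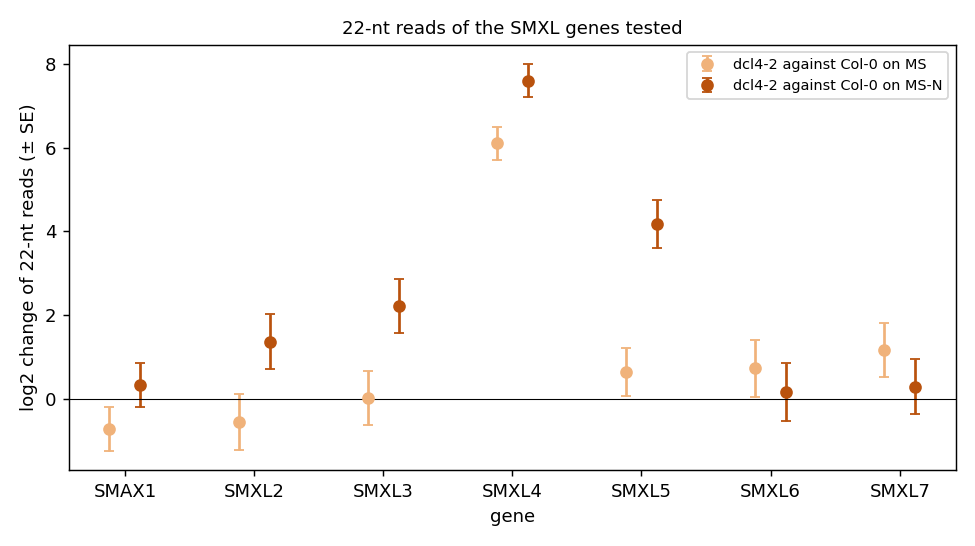
Log2 change of 22-nt reads between dcl4-2 and Col-0 on MS (light) and MS-N (dark) for the 7 SMXL genes tested, as points ± SE from the fit over all loci. SMXL4 lies at 6.10 and 7.60, and SMAX1, SMXL2, SMXL6 and SMXL7 lie between -0.70 and 1.37.

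Genes of strigolactone and karrikin signalling, the pathways of the other SMXL proteins, gave few reads. Of 10 genes 6 were tested at 22 nt, and 0 passed the threshold between the genotypes on MS, where their median log2 change was 0 beside -0.01 over all loci. On MS-N 1 was higher and 1 lower, where 4.16% of all loci were higher and 2.13% lower, with a median of 0.83 beside 0.32. MAX2, the F-box protein that marks SMXL proteins of both pathways for breakdown, had 12 mutant and 3 wild-type reads on MS-N, a ratio of 7.03 with a counting interval of 1.85 to 37.9 (log2 change 2.00 ± 0.594, SE; limma, adjusted p = 0.0324). D14, the strigolactone receptor, had 1 mutant read and 15 wild-type reads on MS-N, a ratio of 0.130 with a counting interval of 0.00272 to 0.744 (log2 change -1.77 ± 0.513, SE; limma, adjusted p = 0.0275). Both calls rest on these few reads. At 21 nt 7 genes of the list were tested and 0 passed the threshold between the genotypes, while D14 was lower on MS-N than on MS in Col-0, with a log2 change of -2.06 ± 0.462 (SE; limma, adjusted p = 0.00140), where 3.86% of all loci were lower.

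Genes with a role in phloem formed a second list, of which 15 of 22 were tested at 22 nt. On each medium 1 was higher and 0 lower in dcl4-2, with median log2 changes of 0.34 on MS and 0.38 on MS-N beside -0.01 and 0.32 over all loci. Of all loci, 0.869% were higher on MS and 4.16% on MS-N. On both media the called gene was BAM3, a receptor kinase that perceives the peptide CLE45 and restrains protophloem formation. The Col-0 libraries held 0, 5.09 and 1.05 normalized reads of 22 nt from BAM3 on MS, and the dcl4-2 libraries 27.6, 7.20 and 73.9. On MS-N they held 5.53, 4.15 and 2.26 in Col-0 and 82.5, 23.8 and 23.6 in dcl4-2. The groups did not overlap on either medium. The rise of BAM3 was 17.7-fold on MS, where the counting interval ran from 8.14 to 51.1, and 10.9-fold on MS-N, with log2 changes of 3.49 ± 0.556 and 2.95 ± 0.556 (SE; limma, adjusted p = 3.38e-05 and 3.09e-04). On MS the ratio of BAM3 was 8.51 without library 3 of dcl4-2, which held 73.9, 69.4 without library 2 of Col-0, which held 5.09, and 11.8 without library 1 of Col-0, which held 0. On MS-N it was 5.95 without library 1 of dcl4-2. Between media in dcl4-2, 2 of the 15 phloem genes were higher at 22 nt, OPS and SUC2, where 9.89% of all loci were higher, and of the strigolactone and karrikin genes CCD8 was higher and D14 lower. OPS, SUC2 and CCD8 are named here after their values were seen. At 21 nt 8 phloem genes were tested. On MS, BAM3 was higher in dcl4-2, with overlapping libraries, where 0.5% of all loci were higher. Its ratio of 7.02 was 3.13 without library 3 of dcl4-2, and the log2 change was 1.95 ± 0.534 (SE; limma, adjusted p = 0.0450). On MS-N, OPS, which promotes protophloem differentiation, was lower in dcl4-2, where 2.26% of all loci were lower. It had 51 reads of 21 nt in the wild type and 3 in the mutant, with means of 11.6 ± 2.25 and 1.12 ± 1.10 (SD, n = 3), no overlap and a log2 change of -2.71 ± 0.573 (SE; limma, adjusted p = 0.00134). SUC2, the sucrose transporter of companion cells, was higher on MS-N than on MS in dcl4-2 at 21 nt (log2 change 1.75 ± 0.598, SE; limma, adjusted p = 0.0409), where 8.47% of all loci were higher.

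The loci whose 22-nt reads followed SMXL4 or SMXL5 most closely were named by Pearson's r of log2(normalized reads + 1) over the 12 libraries, among 2842 loci with a mean of at least 10 normalized reads. All 12 values share the same libraries and size factors, and the r is a description that mostly reflects the gap between the genotypes. For SMXL4 these were MIR166b (r = 0.979), AT3G44580 (0.965), RSG2 (AT5G43730, 0.965), AT3G44570 (0.958) and the auxin receptor gene AFB2 (0.953). For SMXL5 they were MIR158a (r = 0.870), AFB2 (0.869), the brassinosteroid receptor gene BRI1 (0.861), AT4G07517 (0.840) and AT2G14000 (0.825). The r takes no account of the size of a change. On MS, the 22-nt means of Col-0 and dcl4-2 were 1.32 and 182 for SMXL4. For MIR166b these means were 289 and 397, and for AT3G44580 622 and 1154. They were 21.2 and 190 for RSG2, and 1047 and 1878 for AT3G44570. On MS-N, the means of Col-0 and dcl4-2 were 2.30 and 45.7 for SMXL5. For MIR158a they were 1024 and 1864, and for BRI1 9.89 and 64.7. AFB2 stood among the 5 nearest loci of both genes. Its 22-nt mean was 10.6 normalized reads for Col-0 and 34.2 for dcl4-2 on MS, and 13.7 and 73.4 with nitrogen left out. SMXL4 and SMXL5 had r = 0.794 with each other over 12 libraries, which placed SMXL5 at rank 61 for SMXL4 and SMXL4 at rank 15 for SMXL5. Over the 6 dcl4-2 libraries alone, r between the pair was 0.847, which gave rank 74 for SMXL4 and rank 107 for SMXL5. Over these 6 libraries MIR166b fell to rank 155 for SMXL4 (r = 0.786) and MIR158a to rank 41 for SMXL5 (r = 0.902).

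The longest transcript of each of the 3 genes was searched for stretches complementary to 350 annotated mature microRNAs. The penalty was at most 4, and no gaps were allowed. A mismatch counted more in the 5′ part and the centre of the microRNA, its 5′ base excepted. SMXL3 and SMXL4 held no such stretch. SMXL5 held 1 for miR414 and 1 for miR5658, both in coding sequence of exon 2 and both at the limit of 4. Of 31333 transcripts searched, 10.98% held at least 1 match, and a match is a run of letters and not a cleavage site.

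The authors' deposited table gave log2 ratios for 4 pairs of groups, without the comparison of genotypes on MS. For dcl4-2 against Col-0 on MS-N at 22 nt, the authors' deposited table had a log2 ratio of 8.05 for SMXL4 (adjusted p = 1.38e-38), 4.30 for SMXL5 (adjusted p = 0.00309) and 2.995 for SMXL3 (adjusted p = 0.0441). At 21 nt on MS-N the authors' deposited table had 5.02 for SMXL4 (adjusted p = 5.70e-14) and 1.23 for SMXL5 (adjusted p = 0.376). For MS-N against MS in dcl4-2 at 22 nt, the authors' deposited table had 1.79 for SMXL4 (adjusted p = 1.14e-04), 1.85 for SMXL5 (adjusted p = 0.237) and 3.44 for SMXL3 (adjusted p = 0.0528). The calls of SMXL3 and SMXL5 in this comparison therefore differed between the authors' deposited table and limma. At 21 nt, where limma called all 3 genes, the authors' deposited table had 1.36 for SMXL4 (adjusted p = 0.0679), 2.08 for SMXL5 (adjusted p = 0.182) and 4.12 for SMXL3 (adjusted p = 0.0820) in the same comparison, and none passed 0.05 there. SMXL3 at 21 nt in Col-0 had a log2 ratio of 4.91 between MS-N and MS in the authors' deposited table (adjusted p = 0.0224).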

How the data were processed

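Small RNA was sequenced from 12 libraries of whole seedlings. Per the submitters' processing notes, Bowtie 1.2.2, SAMtools 1.9 and the build TAIR10 were used, and the counting rule and test are not given in the sources used here. The deposited gene tables hold, per locus and group, a signal that the header calls TPM. From its values it averages 3 libraries, each with its whole reads scaled by a size factor. The authors also deposited log2 ratios with p-value columns, and a class table of each library in rpm, from which library totals were read as the smallest number that makes all values whole.

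Each group mean was split into the whole reads of its 3 libraries with a relative tolerance of 1e-14. This succeeded for 99.8 to 100.0% of the loci above 0. The 34 loci at 21 nt and 13 at 22 nt left out hold up to 88.4% and 49.6% of a column's sum at the least. On data simulated with the same size factors, 0 of the means that could be split were split wrongly. The simulation does not test the size factors themselves. All 3 genes were split in every group. All SDs and tests rest on this step.

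Loci that reached 1 normalized read in 3 or more libraries were compared with limma 3.58.1 (R 4.3.3) on log2(value + 1), with a variance trend, 1 fit over 4 groups and Benjamini-Hochberg adjustment over all loci kept, at a threshold of 0.05. This scale understates changes of low loci. Folds are ratios of means. The members and gene lists were chosen with earlier results of these data known, and SMXL4 and SMXL5 are known from the study itself, so no result here is independent support. Named were the 3 genes, the other 5 SMXL genes, list genes past the threshold between genotypes at 22 nt, and 5 loci of like pattern. The labels do not say that replicates came from separate cultures, so p-values measure the spread between these libraries. Gene models came from RefSeq's annotation of TAIR10.1, whereas the files name TAIR10 and carry no coordinates. A stretch of sequence common to these genes is not reported here.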

Additional observations from a re-analysis of the deposited data

Results flagged for a closer look

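The 22-nt reads of SMXL5 differed between dcl4-2 and Col-0 more on MS-N than on MS, by 3.52 ± 0.806 on the log2 scale (SE; limma, adjusted p = 0.0108). The difference between the genotypes was 0.65 with nitrogen and 4.18 without it. Part of the 3.52 came from Col-0, whose change between the media was -1.40 and not called (limma, adjusted p = 0.158). In the mutant, all 3 libraries on MS-N and library 3 on MS held more 22-nt reads of SMXL5 than any Col-0 library. The value rests on few reads in the other groups, with 17 reads on MS and 10 on MS-N for Col-0 and 36 on MS for dcl4-2, and its adjusted p ran from 3.45e-04 to 0.155 over the alternatives.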

How the results depend on the processing

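Values are log2 changes. Of 30 tested differences, 15 passed the threshold, and 4 of these passed it in every alternative: SMXL4 at 22 nt between the genotypes on MS (5.68 to 6.85) and on MS-N (6.90 to 8.25), SMXL4 at 21 nt between the genotypes on MS-N (3.65 to 4.97), and SMXL3 at 21 nt between the media in Col-0 (2.45 to 5.70). The highest adjusted p of these 4 over the alternatives was, in the same order, 0.0461, 0.00295, 0.00865 and 0.0301 (limma). No called difference changed sign. Over all 390 alternatives, 315 left the direction and the call as they were. The cause of the other changes was not tested. Scaling to microRNA genes, with the same factor for all libraries of a group, moved the median of all loci at 22 nt on MS from -0.01 to -0.39.

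With a pseudocount of 0.1 these calls were lost: SMXL3 at 22 nt between the genotypes on MS-N (3.69) and between the media in dcl4-2 (3.84), SMXL5 at 22 nt between the media in dcl4-2 (2.29) and in the interaction (4.98), and at 21 nt SMXL5 between the genotypes on MS (-3.85) and SMXL4 and SMXL5 between the media in dcl4-2 (1.29 and 2.99). Without a variance trend, SMXL4 (1.85) and SMXL5 (2.12) between the media in dcl4-2 and the interaction of SMXL5 (3.52) were lost at 22 nt, and at 21 nt SMXL5 between the genotypes on MS (-2.51) and SMXL4 (1.26) and SMXL5 (1.87) between the media in dcl4-2. In fits to the 2 groups alone, the same changes at 21 nt were lost, with SMXL4 between the genotypes on MS (3.31) and SMXL3 between the media in dcl4-2 (2.11). At 22 nt these fits lost SMXL3 (2.23) and SMXL5 (4.18) between the genotypes on MS-N and SMXL4 (1.85) and SMXL5 (2.12) between the media in dcl4-2. With no filter SMXL4 at 21 nt between the media in dcl4-2 (1.26) was lost. Trimmed-mean scaling brought the 21-nt interaction of SMXL5 (3.23) past the threshold.

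Under microRNA scaling the calls of SMXL3 at 22 nt between the genotypes on MS-N (1.66), of SMXL3 and SMXL5 at 22 nt between the media in dcl4-2 (1.81 and 1.51) and of SMXL3, SMXL4 and SMXL5 at 21 nt between these media (1.58, 0.61 and 1.32) were lost, and SMXL5 fell past the threshold between the media in Col-0 at 22 nt (-1.81) and 21 nt (-1.84). Uncalled changes that turned sign under it were SMXL3 at 22 nt between the genotypes on MS (-0.16) and between the media in Col-0 (-0.0073), SMXL5 at 21 nt between the genotypes on MS-N (-0.0861) and SMXL4 at 21 nt between the media in Col-0 (-0.37).

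Leaving out 1 library at a time changed a call or an uncalled sign in 16 differences. Between the genotypes these ran from -0.29 to 0.37 for SMXL3 and from -0.17 to 1.27 for SMXL5 at 22 nt on MS, from 1.83 to 2.64 for SMXL3 at 22 nt on MS-N, and from -3.51 to -1.75 on MS and -0.23 to 1.73 on MS-N for SMXL5 at 21 nt. Between the media in Col-0 they ran from -0.27 to 0.54 for SMXL3, -0.15 to 0.72 for SMXL4 and -2.22 to -0.80 for SMXL5 at 22 nt, and from -0.40 to 0.50 for SMXL4 at 21 nt. Between the media in dcl4-2 they ran from 2.00 to 2.63 for SMXL3 and 1.51 to 2.95 for SMXL5 at 22 nt, and from 1.82 to 2.30 for SMXL3, 0.80 to 1.77 for SMXL4 and 1.05 to 3.01 for SMXL5 at 21 nt. The interaction of SMXL5 ran from 2.91 to 4.35 at 22 nt and from 2.28 to 4.24 at 21 nt. No paired analysis was possible because the libraries split from the group means carry no replicate number. With 2 to 18 reads per group, depth limits every statement on SMXL3 at 22 nt.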
